A study of Mus musculus with 2 samples.

Results

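Cluster 11 held 333 of the 7613 leukocytes recovered from the aortas of Apoe-/- mice, and was taken as the cells that the authors' cell table assigns to cluster 11, where they are named T cells. Of these, 94 came from the saline library and 239 from the nt-LNA library. All mice lacked apolipoprotein E and were kept on a western diet for 4 weeks, with a weekly dose of either saline or 30 mg/kg nt-LNA, where LNA usually stands for locked nucleic acid. The sources used here do not give the age or strain background of the mice or how many were pooled in a library. Live CD45+/CD3- cells of the aortic arch and thoracic aorta were sorted, so cells with surface CD3 were meant to be left out, and 1 library per treatment was profiled by droplet 3' RNA sequencing.

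Group 2 innate lymphoid cells (ILC2s) carry no antigen receptor. They are tissue-resident lymphocytes that depend on the transcription factors GATA3 and RORalpha, sense the alarmin interleukin 33 through the receptor encoded by Il1rl1, and secrete interleukins 5 and 13 and amphiregulin. In and around arteries they are known as a source of interleukin 5, which acts on eosinophils and on B-1 cells. Interleukin 17A is the textbook product of another program, that of group 3 innate lymphoid cells, Th17 cells and some gamma delta T cells.

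Both Il5 and Il17a led cluster 11, so their promoters are shown with those of Il13 and Il17f, their neighbours on the same chromosomes, of which Il13 was higher in cluster 16 and Il17f was undetected. Each sequence covers the 250 bases before the gene's start, 5' to 3' on the gene's strand, from RefSeq on GRCm38.p6. Capitals mark exact matches, on either strand, to AGATAA (a form of the GATA site), AGGTCA (the ROR half-site) or TGANTCA. The last is a loose form of the AP-1 site, in which N is any base.
Il5, chr11:53720544-53720793, + strand: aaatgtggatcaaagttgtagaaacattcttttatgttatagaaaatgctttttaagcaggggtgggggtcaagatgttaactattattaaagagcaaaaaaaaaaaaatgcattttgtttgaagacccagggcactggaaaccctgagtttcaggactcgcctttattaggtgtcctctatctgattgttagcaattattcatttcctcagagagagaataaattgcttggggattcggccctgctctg
Il13, chr11:53634703-53634952, - strand: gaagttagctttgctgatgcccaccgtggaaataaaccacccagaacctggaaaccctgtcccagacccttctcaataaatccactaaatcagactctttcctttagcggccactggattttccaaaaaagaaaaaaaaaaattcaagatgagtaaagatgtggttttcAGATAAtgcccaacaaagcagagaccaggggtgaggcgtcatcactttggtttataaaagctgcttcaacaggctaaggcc
Il17a, chr1:20730655-20730904, + strand: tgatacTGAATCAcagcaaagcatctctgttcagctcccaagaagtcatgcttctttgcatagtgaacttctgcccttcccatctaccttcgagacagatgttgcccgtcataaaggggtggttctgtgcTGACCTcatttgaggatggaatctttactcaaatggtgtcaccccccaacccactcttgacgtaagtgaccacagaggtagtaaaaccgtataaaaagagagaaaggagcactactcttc
Il17f, chr1:20784271-20784520, - strand: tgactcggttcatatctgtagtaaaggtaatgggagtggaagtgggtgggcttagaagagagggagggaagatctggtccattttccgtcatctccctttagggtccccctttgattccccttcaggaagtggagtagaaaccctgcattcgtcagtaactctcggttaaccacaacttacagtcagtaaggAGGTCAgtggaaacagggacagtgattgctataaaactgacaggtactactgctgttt
The Il13 window held 1 AGATAA match, which began 81 bases before the start. The Il17a window held 1 AGGTCA match, in the reverse orientation and 120 bases before the start. It also held 1 TGANTCA match 244 bases before the start, with A as its central base. The Il17f window held 1 AGGTCA match, 58 bases before the start. None of the letters searched for was in the Il5 window. Other forms of the GATA site were not searched for in any window. The Il5 window holds ctatct, which reads AGATAG on the other strand. Among all 32851 promoters of the same length, 9.99% held AGATAA, 14.02% AGGTCA and 6.75% TGANTCA. A match describes the letters of the window and shows no binding.

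Cluster 11 made up 3.43% of the saline library (94 of 2742 cells, exact Clopper-Pearson 95% interval 2.78 to 4.18). In the nt-LNA library its share was 4.91% (239 of 4871 cells, 4.32 to 5.55). The ratio of nt-LNA to saline was 1.43 (exact conditional 95% interval 1.12 to 1.84). With 1 library per treatment there was no test, and the intervals cover the counting of cells but not the spread between mice or libraries. Whether the CD3- gate plays a part in these shares was not tested. By this ratio cluster 11 ranked 8 of the 20 clusters. The clusters with the largest ratios were clusters 14, 19 and 5, at 2.53, 2.48 and 2.29, and those with the smallest were clusters 10 and 7, at 0.401 and 0.394.

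The direction depended on which cells formed the denominator. Over the clusters deposited as T cells, its share was 19.8% in saline and 17.2% in nt-LNA, and their ratio was 0.868 (0.681 to 1.11). Among clusters 3, 11, 13 and 16, the lymphoid clusters used here as a second reference, it made up 20.3% and 27.9%, a ratio of 1.37 (1.08 to 1.76). Without clusters 2, 5, 14 and 16, which yielded between 1278 and 3935 UMIs (unique molecular identifiers, counted transcripts) per cell, the ratio was 1.68 (1.32 to 2.15). Cluster 16, the cluster most similar to cluster 11 in its markers, had a ratio of 1.19 (0.789 to 1.82), and the share of cluster 11 in the sum of both was 72.3% and 75.9%.

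**Figure D1:**
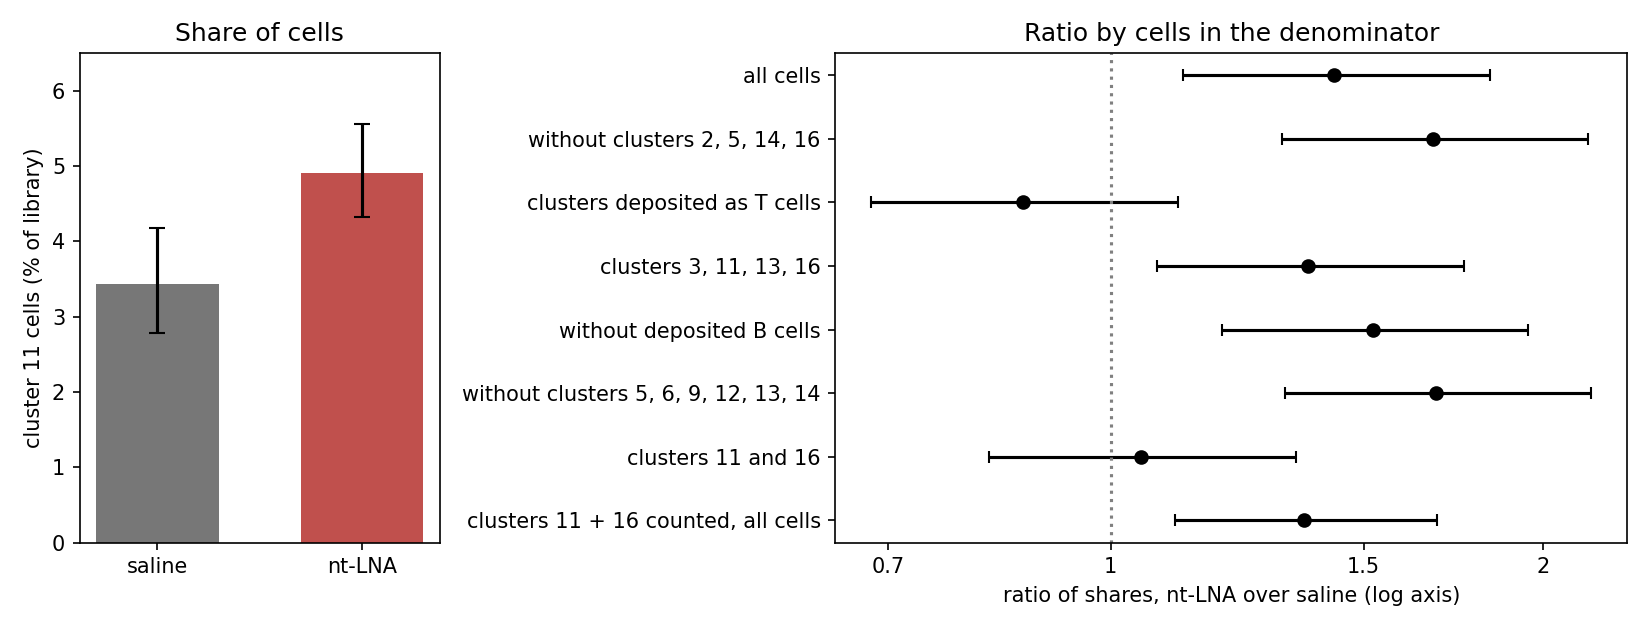
Left, cluster 11 cells as percent of each library with exact Clopper-Pearson 95% intervals (n = 1 library per treatment). Right, the ratio of nt-LNA to saline shares on a log axis with exact conditional 95% intervals, by the cells in the denominator: it lies above 1 over all cells (1.43) and below 1 over the clusters deposited as T cells (0.868).

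The cells of cluster 11 yielded 2205388 UMIs, a mean of 6623 per cell, which ranked 13 of 20, and 13014 genes were detected in their sum. Mitochondrial genes took 2.53% of the UMIs, the lowest share of the 20 clusters, and ribosomal protein genes 28.1%. Cluster 16 held 112 cells with a mean of 1897 UMIs, 8.42% of them mitochondrial, and its whole sum was 212515 UMIs. No cell of cluster 11 shared its barcode sequence with a cell of the other library, although 2 barcode sequences were found in both libraries. Apoe, the gene missing from these mice, gave 3 UMIs in cluster 11, and Ptprc, which encodes the sorted CD45, was at 520.5 CPM (UMIs scaled by the cluster's total).

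All gene values are in CPM, with exact Poisson 95% intervals that cover counting error only. The deposited counts sum the cells of both libraries within each cluster. Levels could therefore not be compared between saline and nt-LNA, and a cluster's level does not tell many cells with few copies from few cells with many. Since the clustering itself drew on these expression values, differences between clusters are described without a test. A gene was called higher or lower when cluster 11 differed more than 2-fold from its reference, after 0.5 CPM was added to both, among genes with at least 20 counts over the clusters compared.

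Of 14202 genes compared with the mean of the other 19 clusters, 782 (5.51%) were higher in cluster 11 and 3948 (27.8%) were lower, with a median log2 difference of -0.42. Of the calls, 16.5% were higher. With the median of the other clusters as reference in place of their mean, 1361 of the 14202 genes were higher and 2103 lower. Of those calls 39.3% were higher, and the median difference was -0.08. List counts given below against the mean of the other clusters are to be read beside the 5.51% and 27.8%. Those against that median are to be read beside the 1361 and 2103 of 14202. Against the mean of clusters 3, 13 and 16, 338 of 10582 genes (3.19%) were higher and 1983 (18.7%) lower, with a median log2 difference of -0.33. Of those calls 14.6% were higher, against 31.1% with TMM scaling and 27.1% with median-of-ratios size factors. TMM scaling moved the median difference to -0.04 and the size factors moved it to -0.10.

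The 4 genes in the cluster's label were chosen with earlier results of these data known. Their levels are therefore a description and no support for the label. All were above the mean of the other clusters, and the contrast with cluster 16 differed between them. Areg encodes amphiregulin, a ligand of the epidermal growth factor receptor. It was at 1461 CPM (1411 to 1512) in cluster 11 and 2249 in cluster 16, and between 0.337 and 76.6 in the other clusters. Rora, which encodes RORalpha, was at 536 CPM (505 to 567) in cluster 11 and 903 in cluster 16, and at most 19.9 elsewhere. For both genes the level in cluster 11 was thus many times that of every cluster except 16, which was higher still. The ratios of cluster 11 to cluster 16 were 0.650 (exact conditional 95% interval 0.590 to 0.717) for Areg and 0.593 (0.508 to 0.694) for Rora.

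Il5 gave 175 UMIs in cluster 11, a level of 79.4 CPM (68.0 to 92.0), and only 68 UMIs in all other clusters together. Cluster 16 held 11 of those (51.8 CPM), cluster 10 was at 3.9 CPM, and clusters 3 and 13 had none. Cluster 11 held 72.0% of all Il5 UMIs of the series. Its level was 1.53 times that of cluster 16, with an interval of 0.836 to 3.13 that holds 1. With TMM scaling the ratio was 2.12 (1.15 to 4.32).

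Il17a was more restricted. It gave 117 UMIs in cluster 11, or 53.1 CPM (43.9 to 63.6), and 28 UMIs elsewhere, of which 26 lay in cluster 0, 1 in cluster 2 and 1 in cluster 12. Cluster 11 thus held 80.7% of the Il17a UMIs. Clusters 3, 13 and 16 had none, so cluster 11 was at least 107-fold higher than the 3 together, with 3 counts over their sum as the floor. Against cluster 16 alone, with its smaller sum, the same floor gave at least 3.76-fold, and the exact conditional interval of the ratio began at 3.01. The cluster sums do not show whether the same cells carried Il5 and Il17a.

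The cluster's leading markers were those of ILC2s, not those of T cells, its deposited name. Of the 25 ILC2 markers listed, which include Rora, Areg and Il5 of the label, 24 had enough counts. Against the mean of the other clusters 21 were higher and 0 lower, with a median log2 difference of 2.84. Of all genes, 5.51% were higher and 27.8% lower. Against the mean of clusters 3, 13 and 16, 3 were higher and 1 lower, with a median of 0.48, and 20 lay within 2-fold. The shares of all genes there were 3.19% and 18.7%. Gata3, the factor that type 2 lymphocytes require, was at 488 CPM against a mean of 64.5. Il7r, the receptor for interleukin 7, was at 1158 CPM against 184, and Il1rl1, the receptor for interleukin 33, at 520.5 CPM against 75.6. Klrg1, an inhibitory receptor of mature ILC2s and NK cells, was at 189 CPM in cluster 11, 187 in the NK gene-rich cluster 3 and 193 in cluster 16. Arg1, the arginine-degrading enzyme that ILC2s carry constitutively, was at 456 CPM, 18.3 times the mean of the others, with cluster 16 at 287 and cluster 10 at 110.5. Icos (198 CPM), Cxcr6 (399), Hs3st1 (368), Rnf128 (147) and Ccr8 (48.5) were between 6.48 and 8.79 times that mean. By these markers cluster 11 was ILC2-like.

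Less abundant receptors of the ILC2 list were present as well. Il17rb, the receptor for interleukin 25, was at 39.9 CPM and Il9r at 47.2 CPM, and both were higher in cluster 16, at 151 and 127. Crlf2, part of the receptor for thymic stromal lymphopoietin, was at 97.5 CPM and did not stand out from a mean of 109 elsewhere. Nmur1, the receptor for neuromedin U, gave 14 UMIs in cluster 11 and 5 in the rest of the series. Bcl11b, a factor shared by ILC2s and T cells, was at 183 CPM against a mean of 265.

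The comparison with cluster 16 depended on the scaling. Against cluster 16, 1189 of 7797 genes (15.2%) were higher in cluster 11 and 1775 (22.8%) lower, and the median log2 difference was -0.28. Of 24 ILC2 markers with enough counts, 0 were higher and 12 lower, with a median of -0.94. TMM scaling multiplied every ratio by 1.38, and then 1901 of all genes (24.4%) were higher and 678 (8.70%) lower, with a median of 0.18. Under it 2 ILC2 markers were higher and 2 lower, with a median of -0.47. The ratio of Arg1 was 1.59 (1.23 to 2.09) without that scaling. Summed over the list, cluster 11 was at 9103 CPM and cluster 16 at 16248. The part that the low UMI count per cell of cluster 16 and its mitochondrial share play in this order was not tested.

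**Figure D2:**
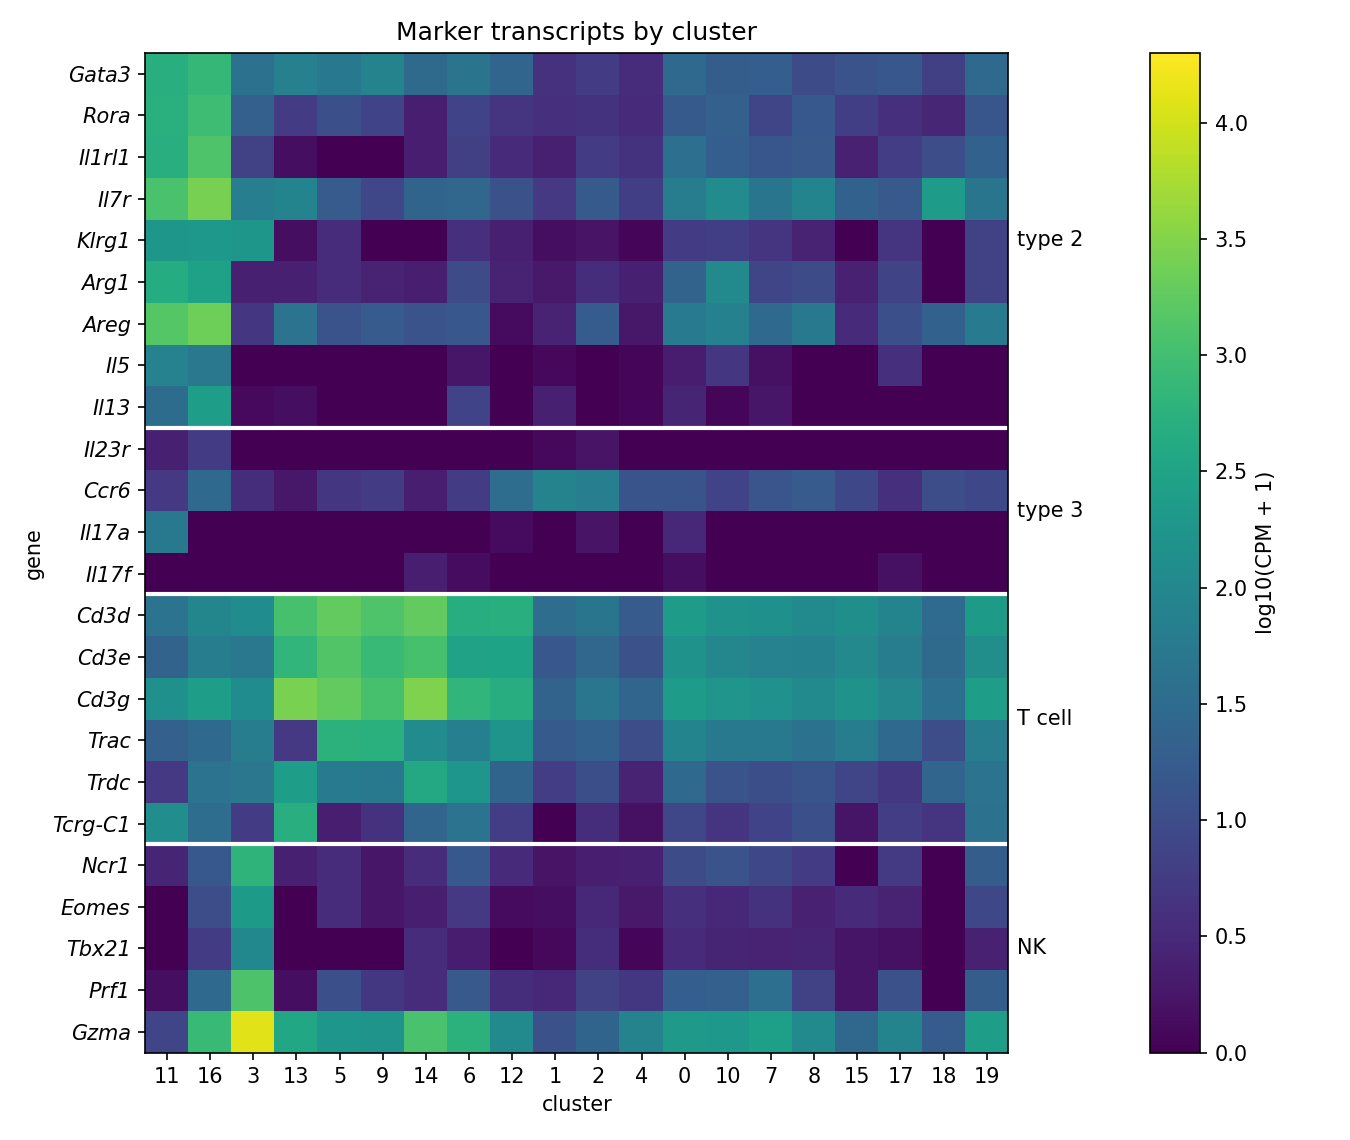
Levels of 24 marker genes in the 20 clusters as log10(CPM + 1), with rows grouped by the cell type they mark and columns ordered with clusters 11, 16, 3 and 13 first. Clusters 11 and 16 share high Gata3, Rora, Il1rl1 and Il7r, cluster 11 stands out for Il17a (53.1 CPM), and Cd3e is low in it (22.2 CPM).

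Among secreted factors, cluster 11 was rich in type 2 products. Of 16 type 2 cytokines and mediators, which include Il5 and Areg of the label, 13 had enough counts. Of the 13, 8 were higher and 3 lower than the mean of the other clusters, beside 5.51% and 27.8% of all genes. Csf2, which encodes the growth factor GM-CSF, was at 577 CPM, and 65.5% of its UMIs in the series were in cluster 11. Ccl1, the ligand of the receptor encoded by Ccr8, was at 312 CPM and Calca, which encodes the neuropeptide CGRP, at 214 CPM. Lif, a cytokine of the interleukin 6 family, was at 207 CPM. All 4 genes were higher in cluster 16, where Csf2 was at 875 CPM, Ccl1 at 649 and Lif at 734.

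Il13, the other defining ILC2 cytokine, departed from Il5. It gave 70 UMIs in cluster 11 (31.7 CPM, 24.7 to 40.1) and 54 UMIs in the far smaller cluster 16 (254 CPM). The ratio of cluster 11 to cluster 16 was 0.125 (0.0863 to 0.182), and 0.172 with TMM scaling, whereas that of Il5 was 1.53. Il4 gave 40 UMIs in cluster 11 (18.1 CPM), against 13.6 CPM in the neutrophil gene-rich cluster 7 and 4.7 CPM, a single UMI, in cluster 16. Il9 and Il3 had 0 UMIs in cluster 11, where 3 counts, taken here as the limit that 0 UMIs allow, amount to 1.36 CPM (the exact Poisson upper limit is 1.67).

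Of the interleukins on the type 3 list, cluster 11 held Il17a alone. Il17f, Il22 and Il21 had 0 UMIs in cluster 11 too, with the same limits. The list also holds Ltb and Csf2, which is on the type 2 list too. Ltb, which encodes lymphotoxin beta, was at 768 CPM in cluster 11 and 1007 in cluster 16. Of the 10 genes, 9 are in the count table and 4 had enough counts. Of these 4, with Il17a of the label among them, 3 were higher and 0 lower, beside 5.51% and 27.8% of all genes. Among type 1 products, Il2, a T cell growth factor, was at 52.6 CPM in cluster 11 and 47.1 in cluster 16. Ifng, the defining type 1 cytokine, gave 4 UMIs. Tnf was at 20.9 CPM against a mean of 25.8. Of the 10 genes on the type 1 list, 1 was higher and 7 lower, and 3 and 4 against the median of the other clusters.

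**Figure D3:**
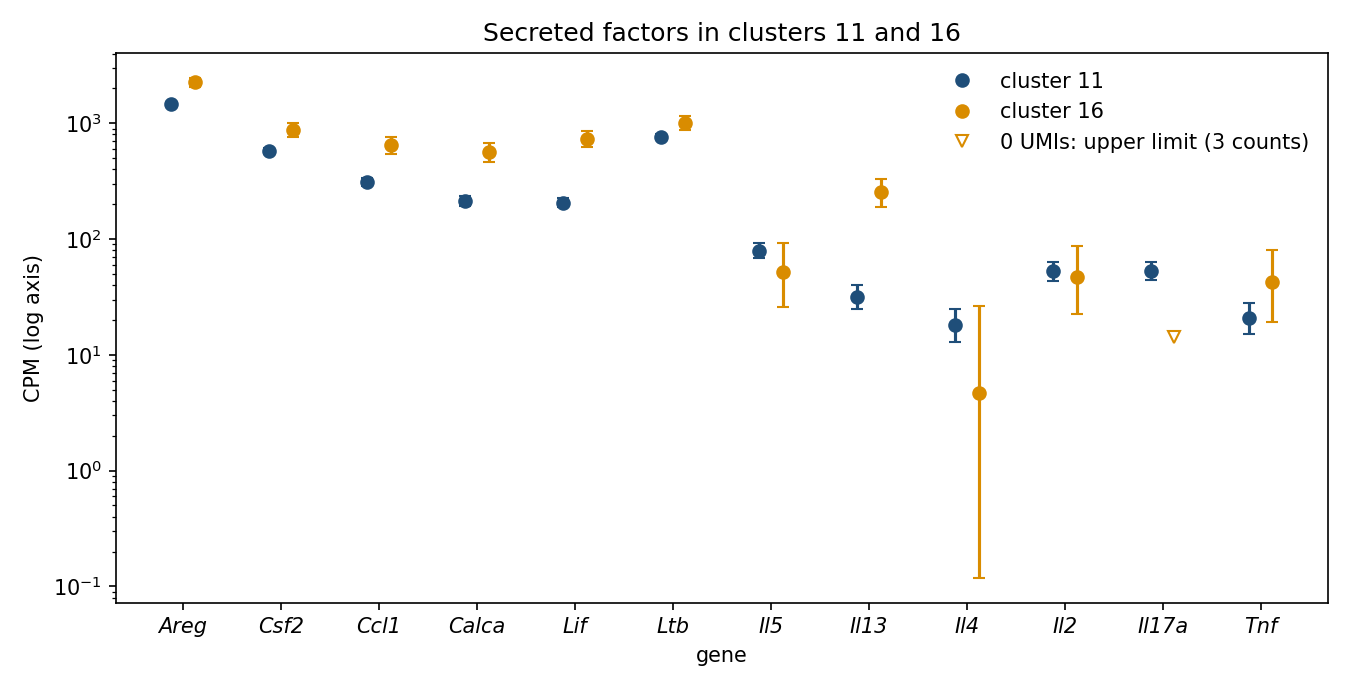
Levels of 12 secreted factors in clusters 11 and 16 in CPM on a log axis, with exact Poisson 95% intervals. The triangle for Il17a marks the level of 3 counts in cluster 16 (14.1 CPM), where it had 0 UMIs. Il13 is at 31.7 CPM in cluster 11 and 254 in cluster 16, and Il5 is at 79.4 and 51.8.

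Receptors that usually accompany interleukin 17A were near the detection limit. Il23r, the receptor subunit for interleukin 23, gave 3 UMIs in cluster 11, Il1r1, the receptor for interleukin 1, gave 7, and Ccr6, a chemokine receptor of type 3 lymphocytes, gave 9. Maf, a factor of interleukin 17-producing cells, was at 104 CPM against a mean of 39.6. Of 14 markers of group 3 innate lymphoid cells with enough counts, 5 were higher and 5 lower, beside 5.51% and 27.8% of all genes. The markers' median log2 difference was -0.19, or 0.04 with TMM scaling. The interleukin 17 gamma delta T cell list, which includes Il17a of the label, had a median of 0.26. Of its 26 genes with enough counts, 11 were higher and 11 lower, beside the same shares of all genes. Against the median of the other clusters, 15 of these were higher and 3 lower, beside 1361 and 2103 of all 14202 genes.

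Several higher members of that gamma delta list are also known in ILC2s or other cells. Il7r and Cxcr6 are in both lists, and the others included Ccr2 (735 CPM), a chemokine receptor, Tmem176a (633) and Tmem176b (741), which encode membrane ion channels, and Serpinb1a (236), a protease inhibitor. Tcrg-C1 and Tcrg-C4, constant segments of the gamma receptor, were at 126 and 131 CPM, and Trdv4, a delta variable segment, was at 56.7 CPM. Trdc, the delta constant segment, gave 9 UMIs (4.1 CPM), and 17 clusters were higher. The gamma segments were above cluster 16, with ratios of 3.81 (1.83 to 9.57) for Tcrg-C1 and 2.79 (1.498 to 5.89) for Tcrg-C4. The delta segments were below it, at 0.309 (0.214 to 0.455) for Trdv4 and 0.0964 (0.0339 to 0.274) for Trdc. Of 17 T cell receptor and CD3 genes with counts, the interval of this ratio lay above 1 for 3 and below 1 for 6. Tcrg-C2 gave 5 UMIs. The gamma constant segments are similar in sequence, and the sources used here do not say how reads shared between them were counted.

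T cell markers were low in cluster 11, whatever its deposited name. Of 16 T cell markers, 0 were higher and 15 lower than the mean of the other clusters, with a median log2 difference of -3.35, and against clusters 3, 13 and 16 they were 0 and 13. Cd3e, a CD3 subunit, was at 22.2 CPM, below 17 of the other clusters, including the macrophage gene-rich cluster 0 at 158 and cluster 10 at 97.0. Cd3d (43.1 CPM) and Trac (19.5 CPM), the alpha receptor constant segment, were likewise exceeded by 16 and 15 clusters. The summed level of the list was 1519 CPM, against a range of 305 to 22739 in the others. Cd3g at 144 CPM, Trbc1 at 302 CPM and Trbc2 at 704 CPM made up most of it, and Cd5 gave a single UMI. Against cluster 16 the ratio of Trbc2 was 1.74 (1.40 to 2.19). Of the 16 markers, the interval of that ratio lay above 1 for 1 and below 1 for 9. The part that free RNA in the droplets plays in these levels was not tested.

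Some genes downstream of the T cell receptor were nevertheless high. Skap1, an adaptor, was at 431 CPM and above all other clusters. Lck, the first kinase of the T cell receptor, was at 45.8 CPM against a mean of 295. Of 18 genes of proximal receptor signalling, 5 were higher and 8 lower, and of 17 genes of the receptor and CD3 complex themselves 3 and 12. Against the median of the other clusters, the counts were 7 and 6 for signalling and 4 and 6 for the receptor and CD3 genes.

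Markers of most other cell types were low. Of 19 markers of NK and group 1 innate lymphoid cells, 1 was higher and 17 lower, with a median log2 difference of -4.53, and 3 and 11 against the median of the other clusters. Eomes, Tbx21 and Klra7 had 0 UMIs, and Ncr1, an activating NK receptor, had 4. Gzma, a granule protease, was at 6.8 CPM against 13011 in cluster 3. A list of 24 NK receptors and cytotoxic genes had 1 higher and 21 lower, and 2 and 15 against the median of the other clusters. All 8 B cell markers, all 10 macrophage and monocyte markers, all 7 neutrophil markers and all 8 dendritic cell markers were lower than the mean of the others, and 8, 10, 4 and 6 of them were lower than their median. Their summed levels in cluster 11 were 542, 184, 77.5 and 166 CPM, against highest values of 20850.1, 36384, 102971 and 9303 CPM in other clusters. Of 13 immature T cell markers, 2 were higher, Il2ra, the interleukin 2 receptor alpha chain (382 CPM), and Hes1, a Notch target (697), while Rag1, the antigen receptor recombinase, was at 14.96 CPM against 1657 in cluster 9. The regulatory T cell markers were mixed. Of 5 with enough counts, 2 were higher, Il2ra and Tnfrsf18, and 1 was lower, with a median of 0.31 (3 and 0 against the median of the other clusters), and Foxp3 had 0 UMIs. Of 7 markers of invariant NKT and MAIT cells 1 was higher and 5 were lower, of 11 mast cell and basophil markers 2 and 8, and of 9 vessel wall markers 0 and 7. Against the median of the other clusters, these counts were 2 and 1 for the mast cell and basophil list and 1 and 1 for the vessel wall list.

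Across all 14202 genes, the profile of cluster 11 correlated best with those of clusters 3 and 16 (Spearman rho across genes 0.897 and 0.890) and least with cluster 14 (0.798). Over the 1000 genes highest in cluster 11, cluster 16 came first (0.699) and cluster 3 next (0.691). Genes are not independent replicates, and clusters 16 and 14 had few UMIs per cell, at 1897 and 3935.

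The immediate early genes, which cells switch on within minutes of a stimulus, stood out in cluster 11. Of 27 activation and immediate early genes, 18 were higher and 6 lower than the mean of the other clusters. The shares of all genes were 5.51% and 27.8%. The median log2 difference of the 27 was 1.38. Their summed level of 25488 CPM was above all 19 other clusters, which ran from 2169 to 21368. Against clusters 3, 13 and 16, 12 of the 27 were higher and 3 lower, beside 3.19% and 18.7% of all genes. Junb, an AP-1 subunit, was at 5540 CPM in cluster 11, 3595 in cluster 16 and between 268 and 1921 in the others. Nfkbia, an NF-kB inhibitor that NF-kB itself induces, was at 3543 CPM in cluster 11, 1619 in cluster 16 and between 51.0 and 1462 in the others. For both genes no other cluster reached the level of cluster 11.

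Jund (2620 CPM), Jun (1323), Fos (1657), Ier2 (1139), Nr4a1 (777) and Zfp36 (1237), which encodes an mRNA-destabilizing protein, were also above all other clusters. Fosb, another AP-1 subunit, was at 1811 CPM and higher in cluster 16, at 3082. The exceptions included Dusp2, a phosphatase, at 24.9 CPM against a mean of 165, and Ier3 at 8.6 CPM against 131.5. Hspa1a, a heat shock gene, gave 4 UMIs and was lower than in all 19 other clusters. Against cluster 16, 3 of the 24 genes with enough counts were higher and 5 lower (6 and 1 with TMM scaling), shares close to those of all genes. Whether digestion and sorting play a part in these levels was not tested.

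**Figure D4:**
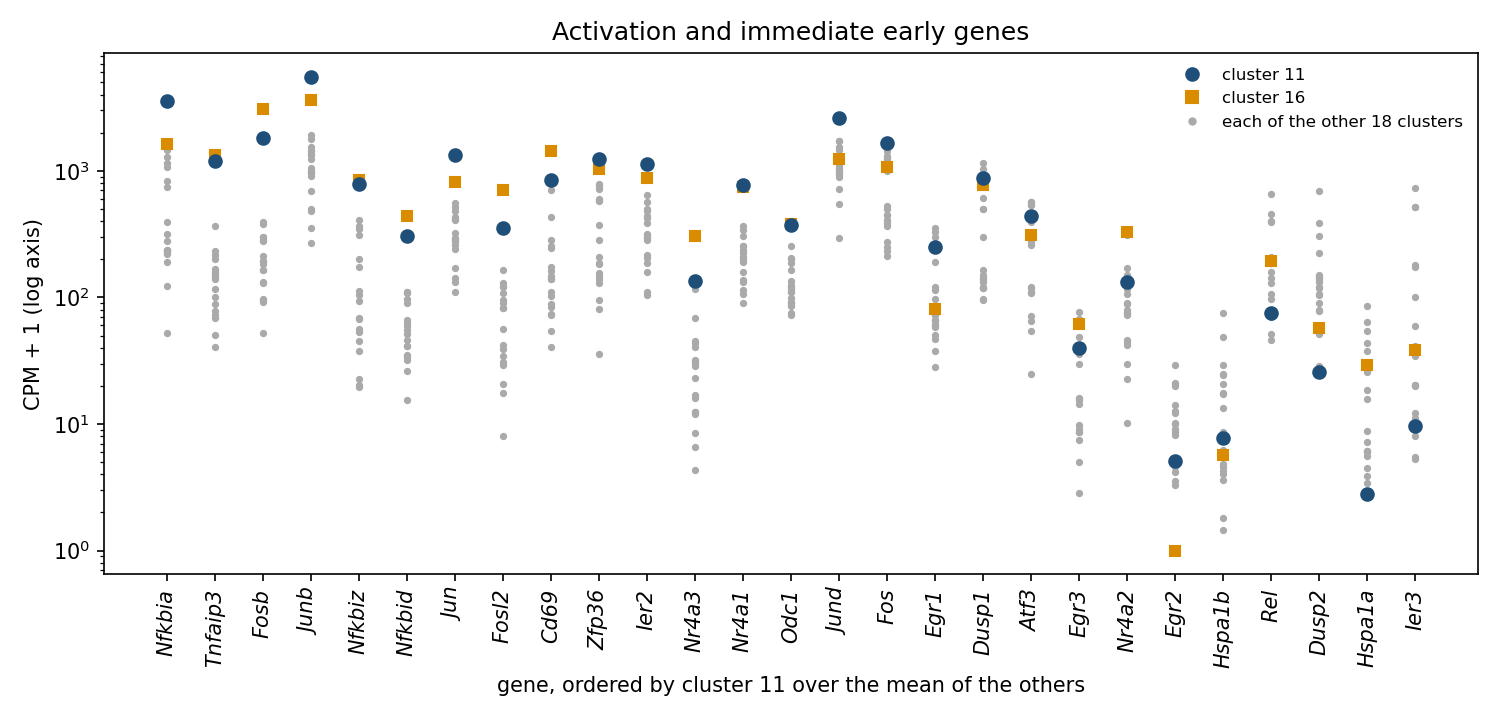
Levels of 27 activation and immediate early genes in CPM + 1 on a log axis, with cluster 11 as blue circles, cluster 16 as orange squares and each of the other 18 clusters as grey points. Genes run from the highest to the lowest ratio of cluster 11 to the mean of the others, and cluster 11 lies on top for Junb (5540 CPM) and Nfkbia (3543) and at the bottom for Hspa1a (4 UMIs).

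Receptors for signals from nerves, lipids and hormones were a mixed group. Of 22 with enough counts, 8 were higher and 3 lower than the mean of the other clusters, with a median log2 difference of 0.42, and 11 and 0 against their median. Ramp3, a partner of receptors for CGRP-family peptides, was at 298 CPM and Ptgir, the prostacyclin receptor, at 88.4 CPM, each over 7 times the mean of the others. Gpr65, a proton sensor, was at 401 CPM and Cysltr1, a leukotriene receptor, at 63.5 CPM. Gpr183, the receptor for oxysterols, was at 320.1 CPM against a mean of 139. All 5 were higher in cluster 16, from 122 CPM for Cysltr1 to 734 CPM for Gpr65. Ptgdr2, the prostaglandin D2 receptor often used to mark ILC2s, had 0 UMIs in cluster 11.

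Of 24 alarmin and cytokine receptors, 7 were higher and 6 lower, with a median of 0.20, beside 5.51% and 27.8% of all genes. Against the median of the other clusters, 12 were higher and 5 lower, with a median of 1.06. Beside Il1rl1 and Il7r these included Il2ra, whereas Il2rb, the interleukin 2 receptor beta chain, was at 64.4 CPM in cluster 11 and 861 in cluster 3. Of 24 costimulatory and inhibitory receptors, 10 were higher and 5 lower, and 14 and 3 against the median of the other clusters. Tnfrsf25, the receptor for the cytokine TL1A, was at 66.2 CPM, and 62.9% of its UMIs were in cluster 11. Tnfrsf18, which encodes GITR, was at 438 CPM and Pdcd1, which encodes PD-1, at 52.6 CPM. Each was above all clusters but 16.

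Of 25 chemokine receptors and adhesion genes, 8 were higher and 15 lower, with a median of -1.13. Against the median of the other clusters these were 8 and 7, with a median of -0.28. Cd69, a retention and activation receptor, was at 853 CPM, Itgb7, an integrin subunit, at 428 CPM and Ccr2 at 735 CPM, each exceeded in cluster 16 alone. S1pr1, the egress receptor, was at 20.4 CPM against a mean of 73.4.

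Of 39 lineage transcription factors, which include Rora of the label, 9 were higher and 10 lower, beside 5.51% and 27.8% of all genes. The factors' median log2 difference of -0.09 became 0.03 with TMM scaling and 0.43 against the median of the other clusters. Id2, required by all innate lymphoid lineages, was at 996 CPM, above cluster 3 at 920.0 and cluster 16 at 903. Tcf7 was at 46.7 CPM against a mean of 370, and Bhlhe40, a regulator of cytokine production, at 362 CPM against 129. Hlf, a factor better known from blood stem cells, was at 53.1 CPM and 13.98 times the mean of the others.

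Metabolic genes differed by pathway. Of 20 genes of lipid uptake and metabolism, 3 were higher and 14 lower, with a median of -1.89, and 3 and 8 against the median of the other clusters. The higher ones were Hilpda, which restrains lipolysis at lipid droplets, at 1061 CPM, Dgat1, which makes triglyceride, at 259 CPM, and Pparg, a lipid-sensing nuclear receptor, at 40.4 CPM. Pparg was 10.5 times the mean of clusters 3, 13 and 16, where it gave 1, 4 and 2 UMIs, and cluster 15 was higher at 76.2 CPM. The ratio to cluster 16 was 0.709 (0.630 to 0.799) for Hilpda, 0.252 (0.215 to 0.295) for Dgat1 and 4.29 (1.15 to 36.0) for Pparg. Plin2, a lipid droplet coat gene that is high in foamy cells, was at 58.0 CPM against 749 in cluster 10. Of 17 genes of amino acid metabolism and glycolysis, 4 were higher and 2 lower, among them Slc7a8, an amino acid transporter, at 239 CPM. Odc1, the first enzyme of polyamine synthesis, was at 369.5 CPM and Ldha, lactate dehydrogenase, at 673 CPM. The ratio to cluster 16 was 0.355 (0.295 to 0.430) for Slc7a8, 0.982 (0.780 to 1.25) for Odc1 and 1.45 (1.18 to 1.79) for Ldha.

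Antigen presentation genes were low, and cell cycle genes were low against the mean of the other clusters. Of 18 cell cycle genes 0 were higher and 11 lower, beside 5.51% and 27.8% of all genes. Against the median of the other clusters 4 were lower, beside 2103 of all 14202 genes. The summed level of the list was 1341 CPM, below 13 other clusters and above cluster 16 at 1125. Mki67 was at 14.5 CPM against 2758 in cluster 14. Of 10 genes of antigen presentation by class II molecules 0 were higher and 10 lower. Cd74, the invariant chain, was at 685 CPM, below all 19 other clusters, whose mean was 8097.

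The 25 genes with the largest ratio to the mean of the other clusters, among 4857 with at least 50 counts in cluster 11, all reached at least 11.6-fold. Of these, 20 were above every other cluster, which largely follows from choosing them by that ratio. Cluster 16 came next for 14 of the 20. The interval of the ratio to cluster 16 held 1 for 17 of the 25 and lay above 1 for 8. After Il17a the largest ratios were those of Acbd7, which encodes an acyl-CoA binding protein (94.3 CPM, ratio 47.0), Mmp2, a matrix-degrading gelatinase (27.7 CPM, 36.0), and Rasl11a, a small GTPase (25.8 CPM, 34.6). Against cluster 16 the intervals were 2.25 to 32.7 for Acbd7, 0.78 to 24.8 for Mmp2 and 0.947 to 221 for Rasl11a. Nrgn, which encodes the calmodulin-binding protein neurogranin, combined a high level with a wide gap. It was at 505 CPM in cluster 11 and 122 in cluster 16, a ratio of 4.13 (2.80 to 6.35).

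Other leading genes included secreted or enzymatic products. Klk8, a serine protease, was at 160.1 CPM and Bmp2, a bone morphogenetic protein, at 68.0 CPM, with cluster 19 next for Bmp2 at 44.7. The intervals of their ratios to cluster 16 were 1.29 to 3.76 for Klk8 and 0.894 to 4.26 for Bmp2. Slc6a13, a GABA transporter, was at 49.9 CPM and Tesc, a calcium-binding protein, at 51.2 CPM. Cluster 16 gave 2 UMIs for each, and the intervals of the ratio to it were 1.43 to 44.3 and 1.47 to 45.5. Rab27b was at 87.1 CPM in cluster 11 and 89.4 in cluster 16, and Stc2, a secreted glycoprotein, at 52.6 and 80.0, and the interval of the ratio held 1 for both. Against clusters 3, 13 and 16, 6 of the 10 leading genes were among these 25, and Krt80, Pparg, Cxcl1 and Sh3bgrl2 were not. Cxcl1, a neutrophil-attracting chemokine, was at 33.1 CPM, against 9.4 in cluster 16 and 171 in cluster 19.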

How the data were processed

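The deposited counts are whole-number UMIs per gene, which the authors summed by cluster (20 clusters) without separating the libraries. A deposited cell table assigns each cell to a library, a cluster and a cell type. The submitters' processing notes name Cell Ranger 2.1.1, Seurat and mm9. The sources used here do not give the cell filters, the clustering settings or whether doublets were removed. Doublets were not called here because counts of single cells were not used. Further deposited tables of scores, percent values and p-values were not used, except that cell tallies were checked against the authors' summary (largest difference 0).

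Counts were scaled to CPM by cluster total. Ratios are CPM over CPM, and a gene at 0 in the reference was set to 3 counts over the reference. Log2 differences used a pseudocount of 0.5 CPM and genes with at least 20 counts. No test was made, since each treatment had 1 library. Genes named in the text were drawn from the 25 with the largest ratio to the mean of the other clusters. They were also drawn from the 10 with the largest ratio to clusters 3, 13 and 16. Both sets required at least 50 counts in cluster 11, and not every gene of them is named. The label's genes and members of 31 gene lists were named as well. Ptprc, Pard3, Dach2 and the hemoglobin genes were named after their values were seen. The cells, gene lists and rules were chosen with earlier results of these data known. Of the listed genes, 401 are in the table and 2 are not. Promoters and gene starts came from RefSeq (GRCm38.p6) by symbol, another build than that of the counts.

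Alternatives changed the denominator of the shares, the reference clusters, the scaling (TMM from edgeR 4.0.16, size factors), the count minimum and the pseudocount. Calculations ran in scipy 1.17.1 and pandas 2.3.3 (Python 3.11.15) and were tested on simulated counts.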

Additional observations from a re-analysis of the deposited data

How the results depend on the processing

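No paired analysis was possible because each treatment had 1 library. Cluster 11 made up more of the nt-LNA than of the saline library over all cells (ratio 1.43), and the ratio fell below 1 (0.868) over the clusters deposited as T cells, at 19.8% and 17.2%. The other denominators gave 20.3% and 27.9% (clusters 3, 11, 13 and 16), 4.69% and 7.13% (without B cell clusters), and 3.93% and 6.59% (without clusters 2, 5, 14 and 16). Among those chosen after seeing the data were 4.32% and 7.28% (without clusters 5, 6, 9, 12, 13 and 14), 72.3% and 75.9% (clusters 11 and 16 only, ratio 1.05), and 4.74% and 6.47% (clusters 11 and 16 counted together).

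Against the other clusters, 782 genes higher and 3948 lower became 1361 and 2103 with the median as reference, and 454 and 1633 with a pseudocount of 5 CPM. Against clusters 3, 13 and 16, 338 higher became 777 without cluster 16, 710 with pooled counts, 606 with TMM, 532 with size factors, 788 without a filter, 202 with at least 50 counts and 150 with a pseudocount of 5 CPM. The 1983 lower became 3103 without a filter and 970 with a pseudocount of 5 CPM.

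Of the genes named, 3 called higher or lower than the other clusters or than clusters 3, 13 and 16 changed sign. The log2 difference of Il13 from clusters 3, 13 and 16 was -1.41, but 5.22 without cluster 16 and 1.73 with pooled counts. For Ccr6 it became 0.98 and 0.40 under the same settings. For Ifng, at 4 UMIs, the difference from the other clusters became 0.38 with the median as reference. The cause was not tested. Against cluster 16 the ratio of 10 named genes, Rab27b (0.974 to 1.34) among them, went from below to above 1 with TMM, and of 4 with size factors or without mitochondrial and ribosomal protein genes.

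Cluster 16, with 212515 UMIs, limits each ratio set against it, since 3 counts there amount to 14.1 CPM.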

Other observations

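Hba-a1, an alpha globin gene, gave 291 UMIs in cluster 11, a level of 132 CPM that was above all other clusters, of which cluster 16 came next at 65.9 CPM. Hba-a2 and Hbb-bt did not share this order. Hba-a2 gave 8 UMIs in cluster 11 and Hbb-bt 3, and cluster 0 was higher for both, at 41.8 and 45.0 CPM. Hba-a1 and Hba-a2 are near-identical copies, and the sources used here do not say how the counting split reads between them, so the values of both are uncertain.

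Cluster 16 shared 2 further genes with cluster 11 that no ILC2 list here holds. Pard3, which encodes a cell polarity protein, was at 151 CPM in cluster 11 and 278 in cluster 16, and the transcription factor gene Dach2 was at 95.2 and 160.0 CPM. Both were chosen after their values were seen.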
